A study of Mus musculus with 19 samples.

Results

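The genes described here are those of the major histocompatibility complex (MHC) and of antigen presentation in the mouse endometrium. They were taken as all genes of the count table whose symbol begins with H2-, together with B2m, Tap1, Tap2, Tapbp, Psmb8, Psmb9, Nlrc5, Cd74 and Ciita. This gave 54 of 49089 genes, of which 39 belong to class I, 14 to class II and 1, H2-Ke6, encodes an enzyme and no MHC molecule.

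MHC class I molecules pair a heavy chain with B2m and carry peptides that the proteasome cuts and the Tap1 and Tap2 transporter brings into the endoplasmic reticulum, and they are found on nearly all nucleated cells, where CD8 T cells and NK cells read them. Class II molecules pair an alpha with a beta chain, are held by the invariant chain Cd74 until peptide exchange by H2-DM, and are found mainly on dendritic cells, macrophages and B cells, where CD4 T cells read them. Nlrc5 is the activator of class I genes and Ciita that of class II genes, and both act through proteins bound to the same type of promoter. In the uterus of a mated female, antigen-presenting cells take up and present paternal antigens delivered with seminal fluid.

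RNA of the endometrium, scraped from the myometrium, was sequenced in 19 libraries of 5 groups, each library being a pooled sample of C57Bl/6 females. CONT (3 libraries, numbered 1, 2 and 4) were virgin, untreated females in estrus, collected late on the evening of proestrus, around ovulation. INT (4 libraries) were females mated with intact BALB/c males and collected on day 3.5 post coitum (pc). SVX, SVX_VAS and VAS (4 libraries each) were females on day 3.5 pc mated with surgically modified BALB/c males, the mated females being 8 to 14 weeks old. The labels of these last 3 groups name one surgery in the column name and another in the title and treatment, so the groups carry their column names here and no surgery is assigned to them. The number of animals in a pool and the age of the estrous females are not given in the sources used here, and p-values measure the spread between pools.

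Libraries held 12661266 to 31781270 counts. Values are CPM (counts scaled to the size of each library, with TMM factors), and levels of different genes are compared only as CPM per kilobase of exon. Tests covered the 17222 genes that reached 3 CPM in 3 or more libraries, and a gene was called higher or lower in edgeR's quasi-likelihood test at a false discovery rate (FDR) of 0.05 or less and a change of at least 1.5-fold. Of the 54 genes, 31 were tested, 22 in class I and 9 in class II. H2-K2, H2-T-ps, H2-M5, H2-DMb2 and H2-Ob reached the minimum in no CONT library and so entered only through mated groups. A gene of this kind could hardly enter without being higher there.

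VAS libraries 2 and 3 stood apart from the other 17. Genes shorter than 1500 bases took 2.80% to 2.86% of their counts against 4.78% to 5.33% elsewhere, ribosomal protein genes took 0.285% to 0.313% against 0.949% to 1.28%, and 25016 to 25037 genes had a count against 27757 to 29626. Calls in VAS that change without these 2 libraries are therefore given both ways. None of the 37 mitochondrial genes had a count in any library. Epithelial markers (Epcam, Cdh1, Krt8, Krt18 and Krt19) summed to 2990 to 4102 CPM in CONT and 408 to 2114 CPM in the mated libraries, and the part of this in the MHC values was not tested. In these bulk samples, a change in the number of cells of a type and a change in RNA per cell cannot be told apart.

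The upstream sequences below are shown because class I and class II genes are compared here, and they allow the marked elements of the classes to be read side by side. They are the 180 bases before the RefSeq transcription start (GRCm38.p6), 5′ to 3′ on the strand of the gene, with capitals for matches on either strand to the Y box (CCAAT or ATTGG), an X box core (AGNAACNG), a CRE core (TGACG), a kappa B site (GGGGA directly followed by TTCCC) and an interferon-stimulated response element (GAAA, any 2 bases, GAAA). The first 3 genes are class II and the last 3 are class I.
H2-Aa, chr17:34287824-34288003, minus strand: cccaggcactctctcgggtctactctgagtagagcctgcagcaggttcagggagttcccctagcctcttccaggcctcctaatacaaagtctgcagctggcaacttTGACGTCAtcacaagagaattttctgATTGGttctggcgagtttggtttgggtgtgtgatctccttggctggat
H2-Eb1, chr17:34305687-34305866, plus strand: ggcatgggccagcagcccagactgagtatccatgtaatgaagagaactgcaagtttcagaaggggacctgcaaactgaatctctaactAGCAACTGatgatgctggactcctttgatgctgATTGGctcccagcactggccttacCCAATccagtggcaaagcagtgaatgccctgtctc
H2-DMb1, chr17:34153011-34153190, plus strand: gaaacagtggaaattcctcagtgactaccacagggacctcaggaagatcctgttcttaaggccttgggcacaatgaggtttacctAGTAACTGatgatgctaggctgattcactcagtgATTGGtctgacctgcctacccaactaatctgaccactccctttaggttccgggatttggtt
H2-K1, chr17:34000348-34000527, minus strand: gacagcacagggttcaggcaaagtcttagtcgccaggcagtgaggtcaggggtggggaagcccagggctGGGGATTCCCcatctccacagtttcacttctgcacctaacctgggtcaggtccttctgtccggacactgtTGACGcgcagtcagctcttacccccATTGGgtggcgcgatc
B2m, chr2:122147507-122147686, plus strand: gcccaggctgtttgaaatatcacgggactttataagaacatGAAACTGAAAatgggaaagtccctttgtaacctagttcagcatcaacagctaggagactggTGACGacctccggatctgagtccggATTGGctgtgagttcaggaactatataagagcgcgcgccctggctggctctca
H2-M3, chr17:37270054-37270233, plus strand: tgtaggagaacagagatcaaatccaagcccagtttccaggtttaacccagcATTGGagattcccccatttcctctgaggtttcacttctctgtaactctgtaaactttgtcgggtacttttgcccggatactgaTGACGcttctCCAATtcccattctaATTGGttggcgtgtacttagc

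Of the 31 tested genes, 22 had a promoter window in the table, and Cd74, Ciita, H2-Ab1, H2-K2, H2-Q5, H2-T10, H2-T24, Nlrc5 and Tap2 had none. In the 250 bases before the start, a Y box was found in 6 of 6 class II genes and in 14 of 16 class I genes, against 33.8% of all 32851 windows. Some of these windows do not lie at the start of the counted gene. That of H2-DMa begins at 34125268 and the gene at 34135182. The windows of H2-DMb2 (34144999, gene 34143307) and Tapbp (33919228, gene 33915899) begin inside the gene. The X box core was found in 2 of 6 class II and 2 of 16 class I genes (14.5% of all windows), and the CRE core in 1 of 6 and 9 of 16 (17.8%). The kappa B site was found in H2-K1, H2-D1, H2-Q6 and H2-Q7 (0.0852% of all windows), and the interferon-stimulated response element in B2m, H2-T22 and H2-T23 (2.98%), none of them class II. In H2-Aa the CRE core matches both strands and overlaps itself.

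Spacing between the elements was looked at after the sequences had been read. In H2-Eb1 and H2-DMb1 the X box core began 33 and 34 bases before an ATTGG on the same strand, an arrangement found in 6 of 32851 windows (0.0183%). In B2m, H2-K1, H2-D1, H2-M3, H2-Q7 and the class II gene H2-Aa the CRE core began 24 to 26 bases before an ATTGG, as in 0.103% of all windows. The windows of Psmb9 and Tap1, which lie on opposite strands, overlap. A match is a description of letters and not a bound site, and where no match was found only these letters are missing.

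The first comparison was between estrus and day 3.5 pc after mating with intact males. All 9 class II genes tested were higher in INT than in CONT, by 2.54-fold to 3.71-fold, and in all 9 the libraries did not overlap. In class I, 6 of 22 genes were higher, 1 was lower and 15 were not called. Among all genes tested, 20.9% were higher and 12.7% lower (33.6% called), and 31% had all INT libraries above all CONT libraries. The median log2 fold change was 1.71 over the class II genes tested and 0.26 over the class I genes tested, against -0.01 over all genes. H2-DMb2 and H2-Ob in class II, and H2-M5, H2-K2 and H2-T-ps in class I, are among the genes that entered only through mated groups, so these medians and counts carry no weight of their own.

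The class II chains form the peptide groove that CD4 T cells read. H2-Aa, the I-A alpha chain (chromosome 17 of GRCm38, 34282744 to 34287827), stood at 19.7, 47.4 and 41.6 CPM in CONT 1, 2 and 4 and at 159.5, 111, 86.1 and 119 CPM in INT 1 to 4. Its partner H2-Ab1, the I-A beta chain (34263209 to 34269418), stood at 14.9, 37.2 and 27.9 CPM in CONT and at 131, 80.7, 68.7 and 90.8 CPM in INT. H2-Eb1, the I-E beta chain (34305877 to 34316199), stood at 16.1, 36.6 and 24.9 CPM in CONT and at 118, 79.9, 64.2 and 84.2 CPM in INT. In each of these genes CONT 1 was the lowest and INT 1 the highest library, and the lowest INT library lay above the highest CONT library. H2-Aa was 3.27-fold higher (log2 fold change 1.71, SE 0.30, edgeR FDR 0.000226), H2-Ab1 3.47-fold (1.79, SE 0.27, FDR 6.04e-05) and H2-Eb1 3.33-fold (1.74, SE 0.26, FDR 6.81e-05). C57Bl/6 mice carry a disrupted I-E alpha gene, listed here as H2-Ea-ps, which had a count in 1 library only.

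Cd74, the chaperone that holds new class II molecules (chromosome 18, 60803848 to 60812646), stood at 41.1, 89.6 and 75.6 CPM in CONT and at 327, 187, 152 and 208 CPM in INT, a 3.17-fold difference (log2 fold change 1.67, SE 0.36, FDR 0.00134 in edgeR). Per kilobase of exon its level in INT was 155 ± 53.9 CPM (SD, n = 4), against 63.4 ± 16.3 for H2-Aa, 56.7 ± 16.5 for H2-Ab1 and 73.1 ± 19.01 for H2-Eb1. The chain levels lay within 1 SD of each other, and that of Cd74 lay above all 3.

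The peptide exchange genes were lower in level per length, at most 2.99 CPM per kilobase of exon in CONT against 16.3 to 21.8 for the chains H2-Ab1, H2-Aa and H2-Eb1, and moved in the same direction. H2-DMa, the alpha chain of the H2-DM editor, stood at 3.13, 4.92 and 4.82 CPM in CONT and at 17.8, 9.08, 8.05 and 8.76 CPM in INT (2.54-fold, FDR 0.00282). H2-DMb1, its beta chain, stood at 3.66, 5.53 and 4.14 CPM in CONT and at 21.8, 10.02, 9.86 and 11.5 CPM in INT (2.97-fold, FDR 0.000656). INT 1 stood well above the other INT libraries in both genes, as in H2-DMb2 (4.73 against 1.74 to 2.07 CPM). H2-DMb2 reached the minimum only in INT 1, VAS 2 and VAS 3, and 16.1% of its 75-base words also occur in other genes, chiefly H2-DMb1. H2-Ob, a chain of the H2-DM inhibitor H2-O, rose from 0.768 to 1.71 CPM in CONT to 3.90 to 5.16 CPM in INT (3.46-fold, FDR 4.04e-05). Its partner H2-Oa was below the minimum and not tested, with 0.285 to 0.301 CPM in CONT and 1.20 to 1.88 CPM in INT.

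Ciita, the activator of class II genes (chromosome 16, 10488178 to 10527564), stood at 5.85, 10.6 and 11.8 CPM in CONT and at 37.3, 23.9, 21.0 and 25.3 CPM in INT. It was 2.85-fold higher (log2 fold change 1.51, SE 0.26, edgeR FDR 0.000231), with no overlap. Its exons overlap those of Dexi on the other strand, and the strand setting of the counting is not given in the sources used here. The same limit holds for 10 of the 22 class I genes tested, whose exons also overlap exons on the other strand. These are Tapbp, Tap1, Tap2, Psmb8, Psmb9, Nlrc5, H2-Q4, H2-T22, H2-T10 and H2-T-ps.

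**Figure D1:**
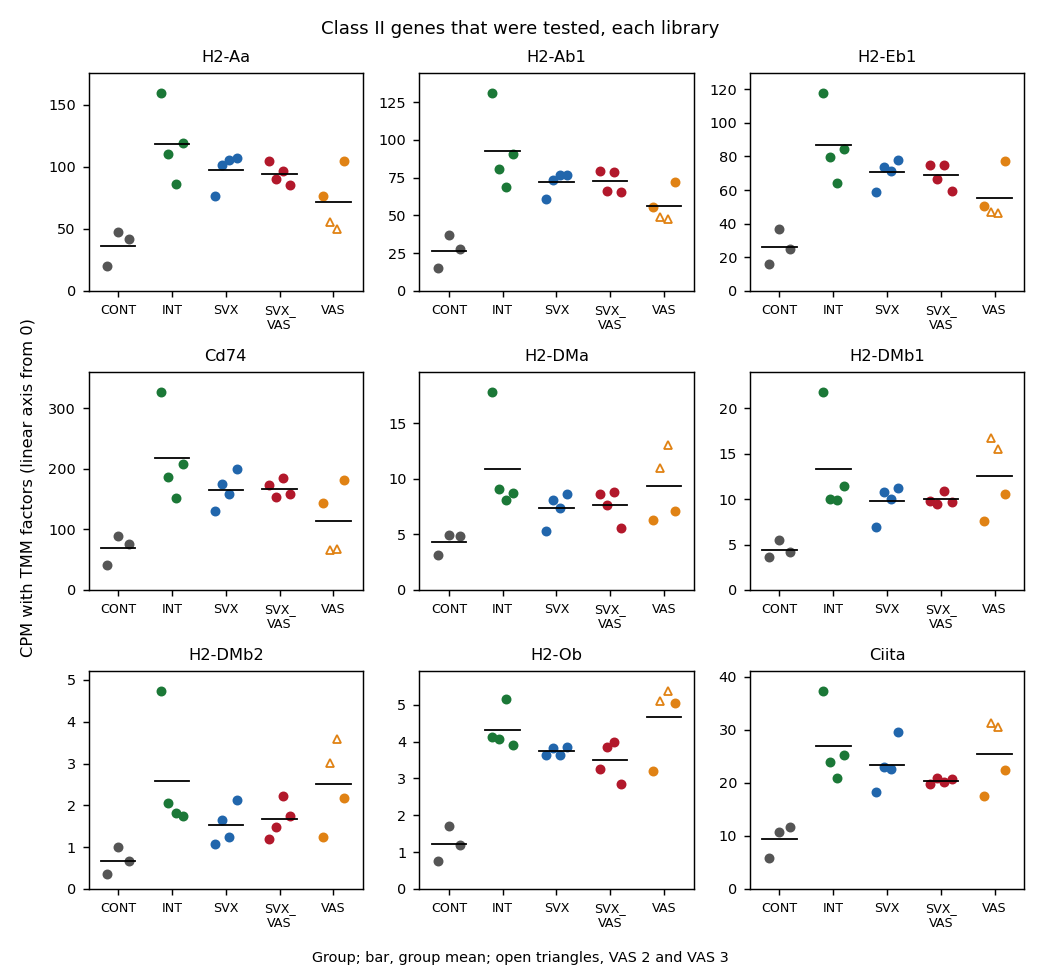
CPM of the 9 class II genes tested in each of the 19 libraries, on linear axes from 0, with bars for group means and open triangles for VAS 2 and VAS 3. All mated libraries lie above all CONT libraries in 8 of the 9 genes, the exception being Cd74, where VAS 2 and VAS 3 (66.7 and 66.8 CPM) lie below CONT 2 and CONT 4.

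The classical class I genes, which encode the heavy chains that present peptides to CD8 T cells, were not called. H2-K1 (chromosome 17, 33996017 to 34000333) stood at 579.6, 515 and 589 CPM in CONT and at 665, 613, 359 and 430.3 CPM in INT (log2 fold change -0.12, SE 0.39, FDR 0.842). H2-D1 (35262730 to 35267499) stood at 754, 571 and 712 CPM in CONT and at 675, 604, 375 and 437 CPM in INT (log2 fold change -0.38, SE 0.41, FDR 0.484). In both genes INT 1 and 2 lay among or above the CONT libraries and INT 3 and 4 below them. B2m, the light chain of every class I molecule (chromosome 2, 122147686 to 122153083), stood at 384, 343 and 420.2 CPM in CONT and at 494, 447, 319 and 405 CPM in INT (log2 fold change 0.12, SE 0.47, FDR 0.861). INT 3 was again the lowest and INT 1 the highest library of the group. Per kilobase, B2m in INT was at 484 ± 86.3 CPM and H2-K1 and H2-D1 at 198 ± 55.8 and 203 ± 54.4 CPM (SD, n = 4), so the 2 heavy chains lay within their spread of each other.

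INT 1 and 2 were also the INT libraries with the most epithelial marker RNA (2114 and 1755 CPM summed over the 5 markers, against 566 and 813 CPM in INT 3 and 4). How much of the spread in class I levels goes with epithelial RNA was not tested.

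Tap1, Tapbp, Psmb8 and Psmb9, which take part in making and loading class I peptides, were near their CONT levels in INT. The proteasome subunits Psmb5 and Psmb10, given further below among the partners, were called lower. Tap1 stood at 84.2, 63.7 and 82.0 CPM in CONT and at 104, 91.7, 62.6 and 70.3 CPM in INT (log2 fold change 0.10, FDR 0.631). Tapbp, which bridges the transporter and the heavy chain, had a log2 fold change of -0.04 (FDR 0.906), and the immunoproteasome subunits Psmb8 and Psmb9 had -0.06 (FDR 0.808) and 0.17 (FDR 0.423). Nlrc5 stood at 94.5, 86.5 and 102 CPM in CONT and at 132, 117, 76.8 and 94.1 CPM in INT (log2 fold change 0.16, FDR 0.484). In Tap1, Tapbp, Psmb8, Psmb9 and Nlrc5 the groups overlapped. Tap2, which forms the transporter with Tap1, was the exception, at 32.5, 36.3 and 35.3 CPM in CONT and 53.8, 53.3, 47.9 and 53.2 CPM in INT with no overlap. Its log2 fold change of 0.58 (SE 0.13, FDR 0.00172 in edgeR) lay just under the 1.5-fold limit, so that it was not called. Without VAS 2 and VAS 3 in the fit it was called (0.61, FDR 0.000441), and 7 class I genes were higher instead of 6, while the share of all genes called higher went from 20.9% to 23.9%.

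**Figure D2:**
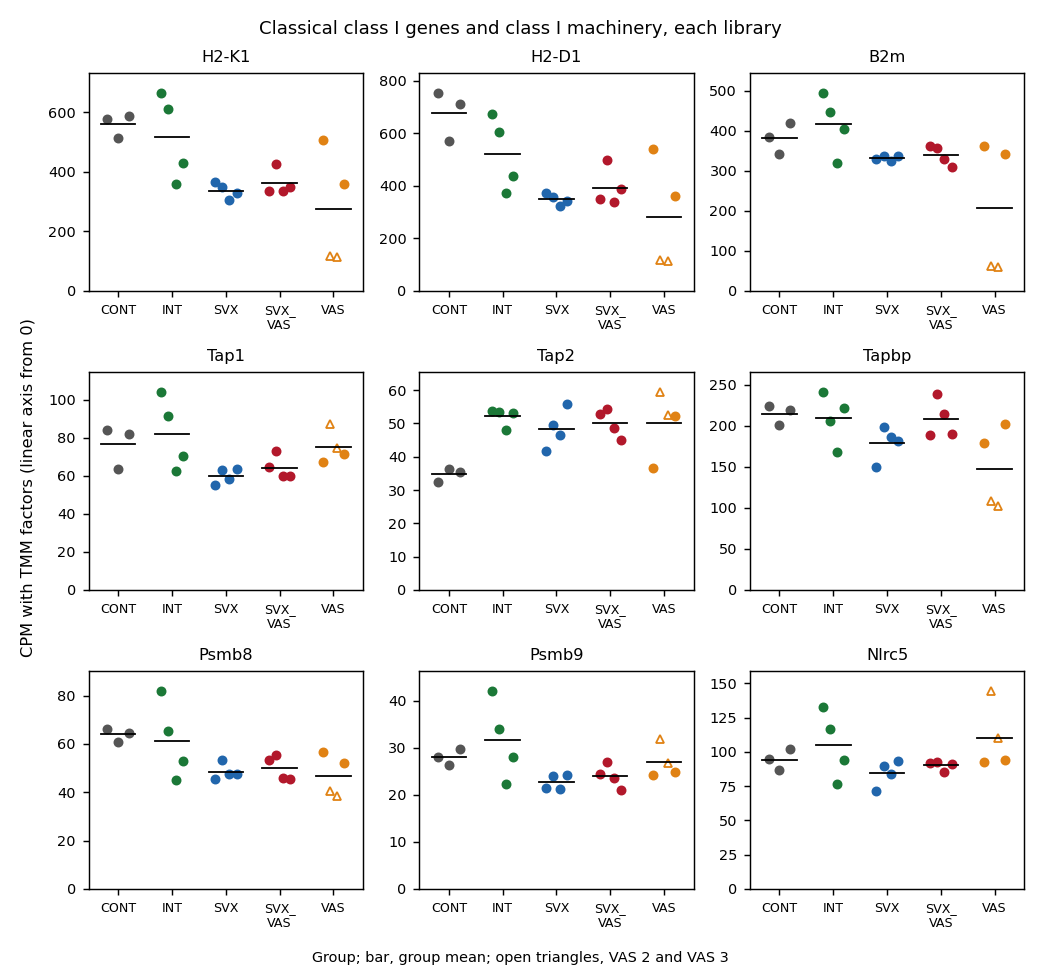
CPM of H2-K1, H2-D1, B2m and the class I machinery in each library, on linear axes from 0, with bars for group means and open triangles for VAS 2 and VAS 3. B2m lies at 62.1 and 60.0 CPM in VAS 2 and VAS 3 and at 309.5 to 494 CPM in the other 17 libraries, and H2-K1 and H2-D1 show the same gap.

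The non-classical class I genes, whose products present narrow sets of peptides or none, held all class I calls. H2-Q5 and H2-T10, which are among the called genes, are annotated as polymorphic pseudogenes. H2-Q6 stood at 28.1, 39.7 and 35.7 CPM in CONT and at 83.0, 87.9, 58.0 and 76.0 CPM in INT (2.21-fold, log2 fold change 1.14, SE 0.15, FDR 1.79e-05). H2-Q7, which encodes the Qa-2 antigen, stood at 38.3, 38.5 and 39.2 CPM in CONT and at 75.6, 81.7, 55.8 and 58.9 CPM in INT (1.76-fold, log2 fold change 0.81, SE 0.13, FDR 0.000123). H2-Q5 was 1.71-fold higher (FDR 0.00188 in edgeR). In these 3 genes of the Q region no INT library reached down to CONT, but 17.9% of the 75-base words of H2-Q6, 16.95% of H2-Q7 and 21.2% of H2-Q5 are shared with other genes, and reads may have been split between them.

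H2-Q2, a gene of the same region with 8.07% shared words, went the other way. It stood at 10.8, 9.77 and 7.61 CPM in CONT and at 4.36, 2.69, 1.08 and 1.18 CPM in INT (log2 fold change -2.01, SE 0.67, FDR 0.0211 in edgeR). It was the single class I gene below CONT in all 16 mated libraries, as were 23.1% of all genes tested. Within the mated groups its highest libraries were VAS 2 (5.28 CPM), SVX_VAS 2 (4.41 CPM) and INT 1 (4.36 CPM).

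H2-M3, which presents formylated bacterial peptides and shares no 75-base word with another gene, stood at 6.67, 8.60 and 9.04 CPM in CONT and at 15.9, 14.7, 12.0 and 13.6 CPM in INT (1.73-fold, FDR 0.00224). H2-T10 was 1.69-fold higher (FDR 0.00483), and H2-M5 rose from 0.65 to 1.13 CPM in CONT to 2.25 to 4.36 CPM in INT (3.58-fold, FDR 0.00043 in edgeR). Of the 75-base words of H2-T10, 16.05% also occur in H2-T22, and reads may have been split between them. H2-T22, a partner of H2-T10 in sequence, was apart from CONT in all libraries but changed by only 1.36-fold (FDR 0.0059) and was not called, and H2-Q4 changed by 1.27-fold (FDR 0.0182). H2-T23, the Qa-1 heavy chain read by the NK cell receptor NKG2A, stood at 56.6, 77.6 and 77.3 CPM in CONT and at 77.0, 55.7, 38.5 and 47.4 CPM in INT (log2 fold change -0.37, SE 0.27, FDR 0.288). H2-T24 (log2 fold change -0.19, FDR 0.223), H2-K2 (0.64, FDR 0.241) and H2-T-ps (0.68, FDR 0.136) were not called either.

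**Figure D3:**
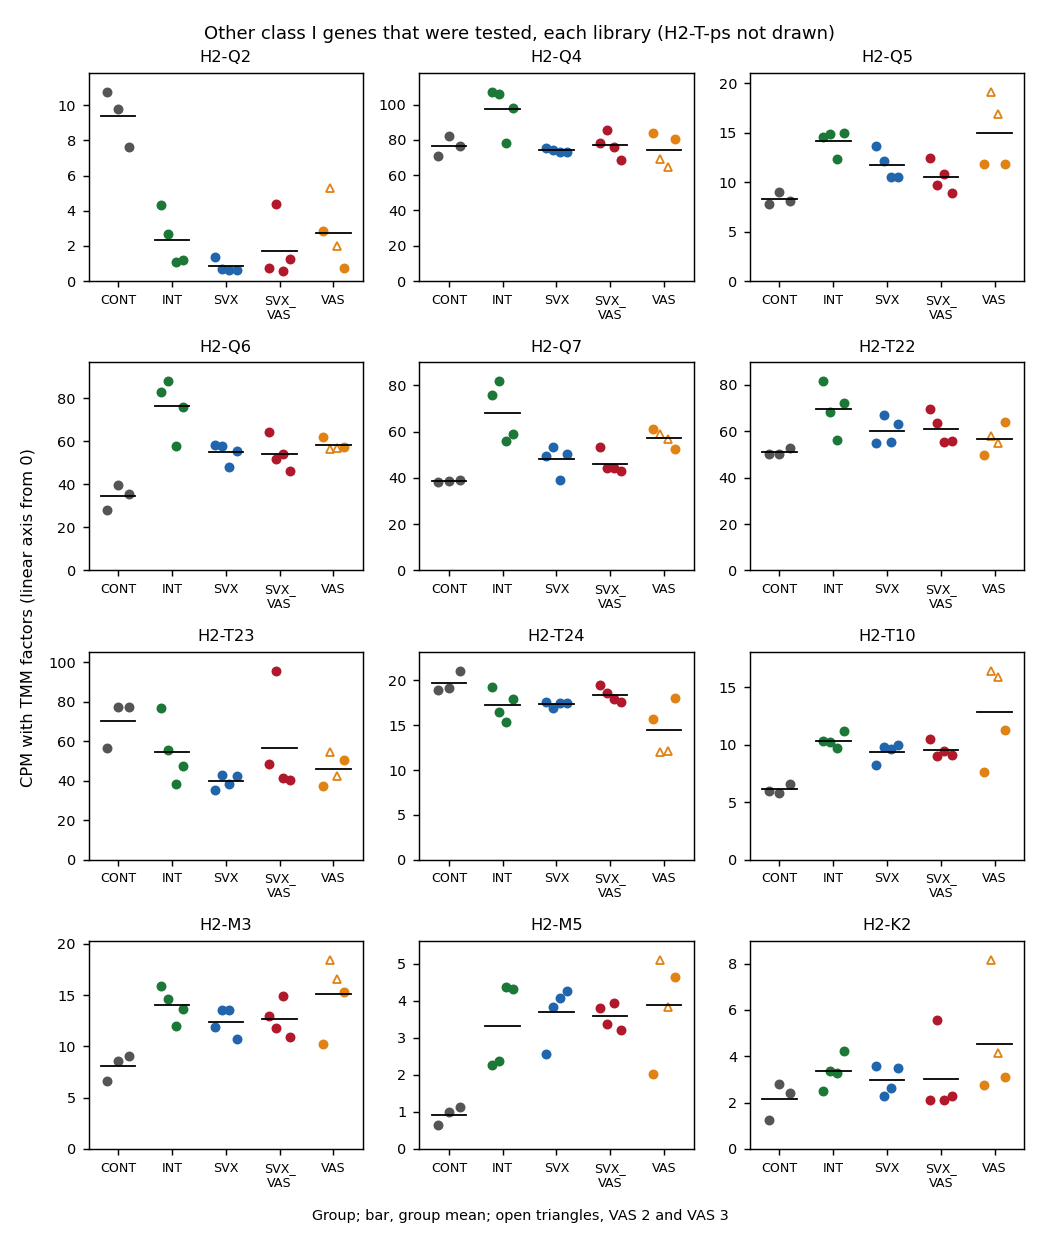
CPM of 12 further class I genes tested in each library, on linear axes from 0, with bars for group means and open triangles for VAS 2 and VAS 3. H2-Q6, H2-T10, H2-M3 and H2-M5 lie above all CONT libraries in all 16 mated libraries, H2-Q2 lies below them, and H2-T23 has 1 high mated library, SVX_VAS 2, at 95.9 CPM.

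The other day 3.5 pc groups were then set beside the same 3 CONT libraries. Because all 4 comparisons share CONT, their calls are not independent of each other, and the values are given side by side. In SVX, 41.5% of all genes were called against CONT (23.1% higher, 18.4% lower), in SVX_VAS 38.5% (22.1% and 16.4%) and in VAS 40.4% (23.2% and 17.2%). Class II genes were higher in 9 of 9 in SVX, in 9 of 9 in SVX_VAS and in 8 of 9 in VAS. H2-DMa and H2-DMb2 passed narrowly in SVX (FDR 0.0486 and 0.0494 in edgeR) and in SVX_VAS (FDR 0.0362 and 0.0321). Neither was called in SVX or SVX_VAS with limma-voom, nor without CONT 1 or without CONT 4, which left 7 of 9 in each group. The same count of 7 came in SVX without SVX 2, SVX 3 or SVX 4, and in SVX_VAS without SVX_VAS 3. The class I genes gave 5 higher and 2 lower in SVX, 5 higher and 1 lower in SVX_VAS, and 7 higher and 3 lower in VAS. Without CONT 1, 3 class I genes were higher in SVX and 2 in SVX_VAS, with 37.5% and 33.5% of all genes called. The count higher in SVX_VAS was 3 without SVX_VAS 1 or SVX_VAS 3, and its count lower was 2 without SVX_VAS 2. The count lower in SVX was 1 without CONT 2 or CONT 4. That in VAS was 1 without CONT 1, CONT 2 or VAS 3, and 5 without VAS 1 (47.8% of all genes called). In SVX, SVX_VAS and VAS the median log2 fold change over the class II genes tested was 1.31, 1.28 and 1.13. Over the class I genes tested it was -0.10, -0.02 and 0.06, and over all genes -0.01, -0.02 and -0.07.

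Among the class II chains, H2-Ab1 stood at 61.1, 73.4, 77.0 and 77.1 CPM in SVX 1 to 4, at 79.4, 66.4, 78.7 and 65.6 CPM in SVX_VAS, and at 55.9, 49.2, 47.6 and 72.4 CPM in VAS. Its log2 fold change against CONT was 1.43 in SVX (FDR 0.000228), 1.44 in SVX_VAS (FDR 0.000268) and 1.07 in VAS (FDR 0.00229), all in edgeR. H2-Aa had 1.43, 1.38 and 0.98, and H2-Eb1 1.44, 1.41 and 1.09. In these 3 genes all 16 mated libraries lay above all CONT libraries. That held for 8 of the 9 class II genes and for Tap2, H2-Q6, H2-T10, H2-M3 and H2-M5 in class I, as it did for 22.4% of all genes tested.

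Cd74 was the class II gene that was not called in VAS. It stood at 131, 174, 159 and 199 CPM in SVX, at 173, 153, 185 and 159 CPM in SVX_VAS, and at 144, 66.7, 66.8 and 181 CPM in VAS. The log2 fold change against CONT was 1.27 in SVX (FDR 0.00625), 1.28 in SVX_VAS (FDR 0.00643) and 0.74 in VAS (FDR 0.0849 in edgeR). Without VAS 2 and VAS 3 it was 1.28 in VAS and was called (FDR 0.00308). H2-DMa went the opposite way, from 1.13 (FDR 0.00713) with these libraries to 0.69 (FDR 0.093) without them, so that 8 of 9 class II genes were called in VAS in either case.

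Ciita stood at 18.2, 22.97, 22.5 and 29.6 CPM in SVX, at 19.7, 20.8, 20.2 and 20.8 CPM in SVX_VAS, and at 17.5, 31.3, 30.5 and 22.3 CPM in VAS. Its log2 fold change against CONT was 1.31 in SVX, 1.11 in SVX_VAS and 1.43 in VAS (FDR 0.000476, 0.0019 and 0.000267 in edgeR), and it was 1.12 in VAS without VAS 2 and VAS 3. The activator was thus called in all 4 mated groups. Nlrc5, the activator of class I, was called in none of them (FDR 0.26 to 0.793), with log2 fold changes of -0.16, -0.06 and 0.23 in SVX, SVX_VAS and VAS.

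H2-K1 and H2-D1 had lower means in all 3 of these groups than in CONT. H2-K1 stood at 367, 348, 306 and 329 CPM in SVX, at 337, 428, 335 and 348 CPM in SVX_VAS, and at 506, 117, 114 and 359.9 CPM in VAS. In SVX and SVX_VAS all libraries lay below all CONT libraries, as they did for 35.7% and 34% of all genes tested, but the log2 fold changes of -0.73 (SE 0.39, FDR 0.123) and -0.63 (SE 0.39, FDR 0.189) were not called. In SVX all libraries also lay below CONT for B2m (326 to 337 CPM, CONT 343 to 420) and Tapbp (149 to 198, CONT 200 to 224). The same held there for Psmb8 (45.5 to 53.3, CONT 60.9 to 66.4) and Psmb9 (21.3 to 24.3, CONT 26.4 to 29.8). In SVX_VAS it held for Psmb8 alone of these genes, and none of them was called in either group. Tap1 overlapped with CONT in both groups, and Tap2 lay above it. In VAS H2-K1 was lower (log2 fold change -1.03, FDR 0.0335), as was H2-D1 (-1.26, FDR 0.0154 in edgeR). Without VAS 2 and VAS 3 neither was called in VAS (log2 fold changes -0.32 and -0.54, FDR 0.242 and 0.0813), and B2m, at -0.89 (FDR 0.114) with them, stood at -0.07 (FDR 0.679). Without these 2 libraries H2-K1 and H2-D1 were also called lower in SVX and SVX_VAS, where the lower class I calls came to 4 and 3 of 22, beside 19.8% and 17.9% of all genes called lower.

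H2-M5, H2-M3, H2-Q6 and H2-T10 were called higher in all 4 mated groups against CONT, and H2-Q2 was called lower in all 4. Of these calls, that of H2-Q2 was lost in INT without CONT 1, INT 3 or INT 4 (FDR 0.0544 to 0.0629 in edgeR) and in VAS without CONT 1, CONT 2, VAS 3 or VAS 4 (FDR 0.0655 to 0.0816 in edgeR). H2-M3 lost its call in SVX without CONT 1, SVX 2 or SVX 3 and in SVX_VAS without CONT 1 or SVX_VAS 3, H2-T10 in SVX without CONT 2, and H2-Q6 in SVX without CONT 1 and in SVX_VAS without CONT 1 or SVX_VAS 1. With no filter on low counts H2-M3 and H2-T10 fell just under the 1.5-fold limit in SVX, and H2-M5 kept its call in every alternative run. H2-Q6 stood at 58.3, 58.0, 48.0 and 55.4 CPM in SVX, at 64.1, 51.7, 54.1 and 46.2 CPM in SVX_VAS, and at 62.1, 56.2, 56.7 and 57.2 CPM in VAS, all below the 3 highest INT libraries. H2-Q7, called in INT, had log2 fold changes of 0.32 in SVX (FDR 0.048), 0.25 in SVX_VAS (FDR 0.11) and 0.57 in VAS (FDR 0.00161), all under the 1.5-fold limit. Without VAS 2 and VAS 3 it was called higher in VAS (0.60, FDR 0.00746 in edgeR). H2-T23 was called lower in SVX (35.1, 43.1, 38.5 and 42.5 CPM, log2 fold change -0.82, FDR 0.0167), and its difference between SVX and INT was not called (FDR 0.9997). The call of H2-T23 in SVX was lost without CONT 2 and without CONT 4. H2-K2 and H2-T-ps are annotated as unprocessed pseudogenes. Both were called higher in VAS with a CONT overlap and were not called there without VAS 2 and VAS 3. H2-T-ps was also called higher in SVX (1.05, FDR 0.0209) and SVX_VAS (0.96, FDR 0.0347 in edgeR), with and without those libraries. Over all alternatives its call was lost 8 times in SVX_VAS and 1 time in SVX. H2-Q5 was called higher in VAS as well (0.85, FDR 0.000766 in edgeR) and fell under the 1.5-fold limit without them (0.56, FDR 0.00697). Without those libraries the class I calls in VAS were 5 higher and 1 lower, with 35.8% of all genes called.

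**Figure D4:**
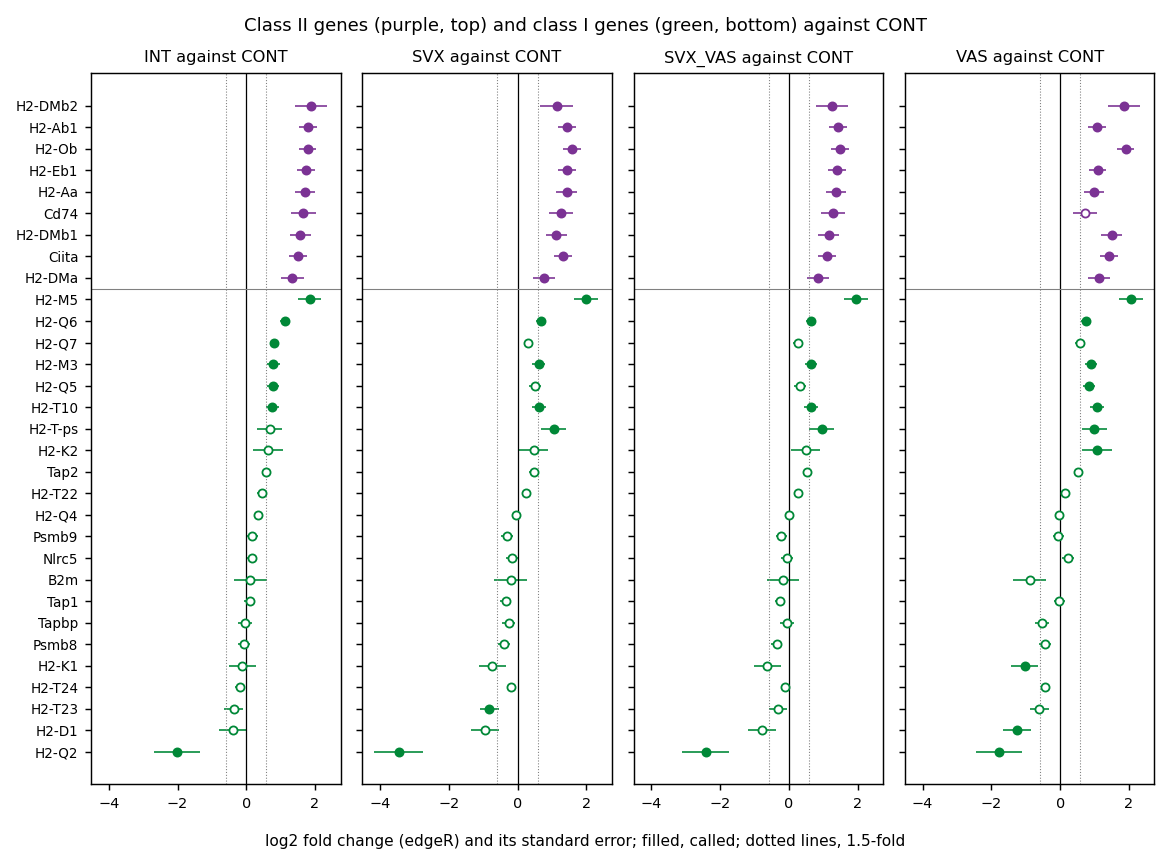
Log2 fold change against CONT and its standard error for the 31 genes tested, one panel per mated group, with class II genes at the top (purple), class I genes below (green), filled symbols for called genes and dotted lines at 1.5-fold. Class II genes lie to the right of the 1.5-fold line in all 4 panels, and class I genes lie on both sides of 0, from H2-Q2 (-3.46 in SVX) to H2-M5 (2.07 in VAS).

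The question whether the modified males altered these genes was addressed by comparing SVX, SVX_VAS and VAS with INT. No MHC gene was called in any of the 3 comparisons, and 0 of the 17222 genes tested were called (0% in each). At an unadjusted p under 0.05 in edgeR there were 749, 339 and 1831 genes in all, and 7, 6 and 9 class I and 0, 0 and 4 class II genes. DESeq2 called 0.0174%, 0.0116% and 0% of all genes and limma-voom 0%, 0% and 9.64%, with no MHC gene among them.

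Point estimates lay mostly below INT. The median log2 difference from INT over the class II genes tested was -0.36 in SVX, -0.38 in SVX_VAS and -0.22 in VAS, and over the class I genes tested -0.32, -0.26 and -0.23. Without VAS 2 and VAS 3 the medians in VAS were -0.42 for class II and -0.22 for class I. For H2-Ab1 the difference was -0.36 in SVX (95% interval -0.86 to 0.13), -0.36 in SVX_VAS (-0.85 to 0.14) and -0.72 in VAS (-1.22 to -0.22, FDR 0.452). Without VAS 2 and VAS 3 it was -0.52 in VAS for H2-Ab1 and -0.41 for Cd74, which stood at -0.93 with them, and 0 of all genes were called. For Ciita the intervals were -0.70 to 0.30, -0.90 to 0.10 and -0.57 to 0.42, and for Tap2 -0.36 to 0.15, -0.31 to 0.21 and -0.31 to 0.21. The intervals lay within a 2-fold difference either way for 5 of 9 class II genes in each comparison, and for 15, 18 and 16 of 22 class I genes, so for the others a difference of 2-fold was not excluded by these data.

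H2-Q7 had the smallest unadjusted p of the MHC genes in 2 of the comparisons. It stood at 49.5, 53.4, 39.2 and 50.4 CPM in SVX and at 53.1, 44.3, 44.1 and 42.9 CPM in SVX_VAS, all below the lowest INT library (55.8 CPM). The log2 difference from INT was -0.50 in SVX (unadjusted p = 0.000741 in edgeR) and -0.56 in SVX_VAS (unadjusted p = 0.000254 in edgeR), and neither was called. The exact permutation test gave p = 0.0286 (two-sided), the smallest that 4 against 4 libraries allow. H2-Q7 was picked from the 31 genes tested for its small p. Its libraries did not overlap with INT, so the permutation value was fixed beforehand and adds no evidence. In VAS, at 61.3, 58.9, 56.6 and 52.5 CPM, H2-Q7 overlapped with INT. Of all genes tested, 1.25% in SVX and 0.79% in SVX_VAS had all libraries below all INT libraries.

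The VAS libraries fell into 2 pairs for many of the MHC genes. VAS 2 and VAS 3 held 0.174 times the B2m of VAS 1 and VAS 4, 0.253 times the H2-D1, 0.266 times the H2-K1 and 0.41 times the Cd74. They held more of other genes of the same pathways, with 1.55 times the Ciita, 1.36 times the Nlrc5, 1.78 times the H2-DMb1 and 1.79 times the H2-DMa. Both classes thus held genes that were lower and genes that were higher in these libraries. H2-M10.2 had 0 counts in VAS 2 and VAS 3, which allows up to 3 counts, and 0.896 to 2.55 CPM in the other 17 libraries. Sums of some cell type markers differed in the same libraries. The neutrophil markers summed to 44.9 and 55.1 CPM in VAS 2 and VAS 3 against 6.72 to 19.04 CPM in the other 17 libraries, and the stromal markers to 1103 and 1213 CPM against 2645 to 4279.5 CPM. Csf3r, S100a8 and S100a9 lay above the other libraries there, and Ly6g (1.21 CPM in both) lay within their range. Col1a1 and Vim lay below the other libraries, and the stromal markers Pdgfra, Pdgfrb and Hoxa11 lay within their range. The part of these differences, and of those in short and ribosomal protein genes given above, in the MHC values was not tested.

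**Figure D5:**
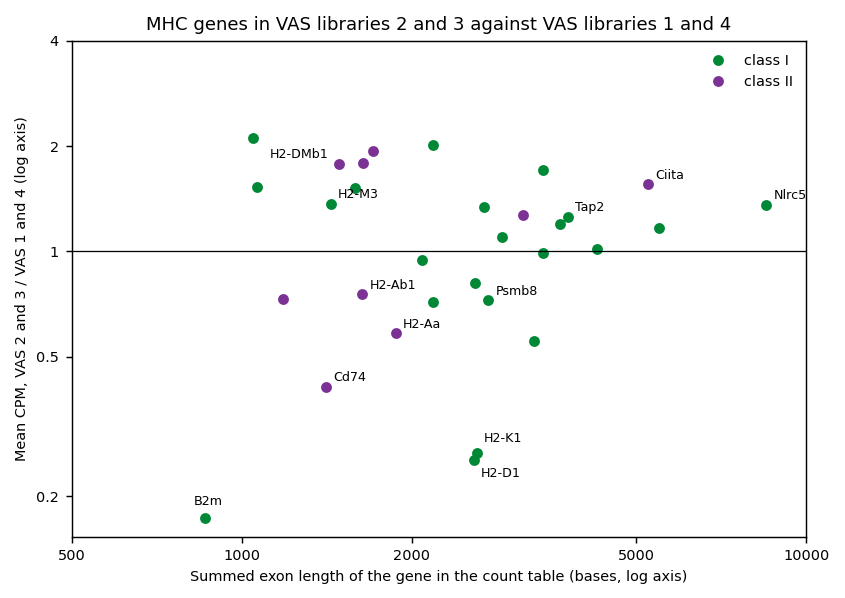
Mean CPM in VAS 2 and VAS 3 divided by that in VAS 1 and VAS 4 for the 31 genes tested, against the summed exon length of the gene, both on log axes. B2m (0.174), H2-D1 and H2-K1 lie lowest, and H2-K2 (2.11) and H2-Q2 (2.01) highest.

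The remaining 23 genes were below the minimum. Among them H2-M10.3, H2-M10.4, H2-M10.5, H2-M10.5-ps1, H2-M11, H2-M1 and H2-Pa had 0 counts in all 19 libraries, each of which allows up to 3 counts in a library. H2-Q10, a secreted class I product, stood at 0.365 to 2.38 CPM and H2-Eb2 at 0 to 0.649 CPM. H2-Oa was the one among them whose 16 mated libraries (0.716 to 1.96 CPM) all lay above CONT, although no test was made on it.

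Partners outside the MHC were read from lists chosen with earlier results of these data known. The share of all genes called in this comparison, 33.6% (20.9% higher and 12.7% lower), stands beside each of their counts. As with the MHC genes, some of the listed genes reached the minimum in no CONT library and could hardly be tested without being higher in mated groups, namely Cd86, Cd40, Cxcl9, Cxcl10, Cd4, Klrd1, Flt3, Xcr1, Cd209a, Batf3, Cd3e, Cd3g, Gzma, Csf3r and Ccr3, so counts that hold them carry no weight of their own. Of 15 partners of class I presentation, 3 were higher in INT than in CONT and 2 were lower, with a median log2 fold change of -0.50. Those higher in INT were the class I-like molecules Cd1d1 (log2 fold change 2.27, FDR 1.92e-05), Mr1 (1.01, FDR 0.00139) and Fcgrt (0.77, FDR 0.000791), and those lower in INT were the proteasome subunits Psmb5 (-1.01, FDR 0.0172) and Psmb10 (-0.63, FDR 0.0134 in edgeR). The count lower in INT was 0 without INT 4, 1 without CONT 1 or INT 3, and 4 without INT 1. In the other groups against CONT the list gave 3 higher and 9 lower in SVX, 3 and 9 in SVX_VAS, and 3 and 10 in VAS, where 18.4%, 16.4% and 17.2% of all genes were lower. The count in VAS was 3 higher and 4 lower without VAS 2 and VAS 3, with 12.4% of all genes lower, and that in INT was 3 and 4, with 14% lower. Leaving out 1 library at a time gave 6 to 9 lower in SVX, 4 to 7 in SVX_VAS (4 without CONT 1 and 5 without SVX_VAS 3) and 9 to 11 in VAS.

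The chaperones Calr, Canx and Pdia3 help fold heavy chains. In INT their log2 fold changes were -0.79, -0.50 and -0.72, and none was called with all libraries in the fit. Calr was lower in SVX (-1.05, FDR 0.0395), SVX_VAS (-1.06, FDR 0.0405) and VAS (-1.60, FDR 0.00384 in edgeR), and Pdia3 in SVX (-0.93, FDR 0.0493), SVX_VAS (-0.95, FDR 0.0478) and VAS (-1.46, FDR 0.0044 in edgeR). Canx was called lower in VAS (-1.13, FDR 0.00975 in edgeR) and not in SVX or SVX_VAS. With VAS 2 and VAS 3 left out, Calr (-0.86, FDR 0.00627) and Pdia3 (-0.75, FDR 0.00683) were still called lower in VAS, and Canx was not (-0.48, FDR 0.0418 in edgeR). In that fit Canx was instead called lower in SVX (-0.61, FDR 0.00232) and SVX_VAS (-0.66, FDR 0.00159 in edgeR). Calr (-0.77, FDR 0.00262) and Pdia3 (-0.70, FDR 0.00216) were there also called lower in INT, and Canx was not (-0.47, FDR 0.0146 in edgeR).

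Of 14 class II partners tested, 3 were higher, namely March1 (1.26, FDR 0.00169), which marks class II molecules for degradation, and the costimulatory molecules Cd86 (1.38, FDR 0.00342) and Cd40 (1.68, FDR 0.00306). Cd86 and Cd40 reached the minimum in no CONT library and entered only through mated groups, so this count carries no weight. Nfya, a subunit of the Y box factor, was lower (-0.84, FDR 5.14e-05 in edgeR). Rfx5, of the X box factor, had a log2 fold change of 0.42 (FDR 0.00747), under the 1.5-fold limit, and Rfxap, Rfxank, Nfyb and Nfyc were not called. The median of the list was 0.08.

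In the interferon gamma axis, which drives both activators in many cells, 5 of 14 genes tested were higher and 4 lower. Irf8 (log2 fold change 1.24, FDR 5.52e-05), Cxcl9 (3.10, FDR 0.000846), Cxcl10, Jak1 and Socs1 were higher, and Irf1 (-0.74, FDR 0.00129 in edgeR), the receptor chains Ifngr1 and Ifngr2, and Irgm1 were lower. Cxcl9 and Cxcl10 reached the minimum in no CONT library. Ifng itself was below the minimum, at 0.352 ± 0.149 CPM in INT (SD, n = 4) and 0.143 ± 0.0835 CPM in CONT (SD, n = 3). Of the receptors that read MHC or MHC-like molecules, Klrk1 (1.41, FDR 0.00225) and Pirb (1.19, FDR 0.00551 in edgeR) reached the minimum in CONT and were higher.

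Markers of cell types known to carry class II molecules were read in INT against CONT, and of the B cell markers 1 was tested and was lower. Of 7 dendritic cell markers tested, 6 were higher and none lower. As 4 of the 7 reached the minimum in no CONT library, this count carries no weight. Itgax (log2 fold change 1.38, FDR 0.000627), Zbtb46 (1.61, FDR 1.08e-05) and Clec9a (1.75, FDR 3.75e-05) reached it in CONT and were higher in INT. The 8 markers summed to 21.6 to 41.7 CPM in CONT, 77.2 to 117 CPM in INT, 88.4 to 121 CPM in SVX, 87.7 to 105 CPM in SVX_VAS and 74.6 to 126 CPM in VAS. In INT most of this sum lay in Zbtb46 (34.2 to 55.0 CPM) and Itgax (20.2 to 29.9 CPM), with Clec9a at 11.8 to 15.4 CPM. Of the 9 macrophage markers 6 were higher, including Adgre1 (1.04, FDR 0.0109) and Lyz2 (1.77, FDR 0.000314), and Cd68 was lower (-1.22, FDR 0.0233 in edgeR), with sums of 188 to 335 CPM in CONT and 407 to 544 CPM in INT. Ptprc, the CD45 antigen of all leukocytes, had a log2 fold change of 1.35 (FDR 0.000252), and 3 of 4 leukocyte markers were higher and Laptm5 lower. The part of these cells in the class II difference was not tested.

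The B cell genes Ms4a1 and Pax5 were at or near 0 and not tested, with means of 0.071 and 0 CPM in CONT and 0.211 and 0.0926 CPM in INT, and Cd79a, not tested either, was at 0.514 CPM in CONT and 0.954 CPM in INT. Cd79b was lower in INT (2.26 CPM against 7.67 CPM in CONT, log2 fold change -1.76, FDR 0.0183 in edgeR). None of the 3 T cell markers tested reached the minimum in CONT, and no count is given for them. The NK cell markers Ncr1, Klrb1c and Prf1 were higher, as were all 4 endothelial and 4 of 5 stromal markers, while 4 of 5 epithelial markers were lower. The blastocyst markers Cdx2, Nanog and Pou5f1 summed to at most 0.15 CPM in any library.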

How the data were processed

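RNA of 19 endometrial libraries was analysed. Per the methods of the study, the authors trimmed TruSeq Stranded total RNA reads with AdapterRemoval, aligned them to GRCm38 with STAR and deposited raw counts per gene from featureCounts. The strand setting is not given in the sources used here. Symbols were matched to GENCODE, and promoter sequences are RefSeq's for GRCm38.p6. Groups follow the column names, and 0 columns belonged to other series.

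Counts of the 5 groups entered a single quasi-likelihood model without a replicate block, scaled by TMM, using glmQLFTest of edgeR 4.0.16 under R 4.3.3, with Benjamini-Hochberg adjustment over all 17222 genes that reached 3 CPM in 3 libraries. Calls required an FDR of 0.05 or less and a 1.5-fold change. Exact permutation tests were two-sided, with a smallest p of 0.0571 for 3 against 4 and 0.0286 for 4 against 4 libraries. The steps were tested on simulated data. Shared sequence was counted as 75-base words of exons. Any gene of the rule that passed the filter could be named. The gene set and the marker and partner lists were chosen with earlier results of these data known. The alternatives were DESeq2 1.42.0 and its size factors, limma-voom (limma 3.58.1), no filter, only the libraries compared, the replicate block and leaving out libraries. Some genes of the lists are not reported here.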

Additional observations from a re-analysis of the deposited data

Results flagged for a closer look

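Within groups of 4 libraries, 14 of 124 gene and group pairs had 1 library apart from the other 3, where chance gives about 1 in 20, or 6.2. The measure is the gap to the nearest library over the whole range of the group.

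INT 1 was the high library for 3 peptide exchange genes, H2-DMa (0.894, 17.8 CPM against 8.05 to 9.08), H2-DMb2 (0.891, 4.73 CPM against 1.74 to 2.07) and H2-DMb1 (0.864, 21.8 CPM against 9.86 to 11.5). INT 3 was the low library for Tap2 (0.899, 47.9 CPM against 53.2 to 53.8) and H2-Q5 (0.855, 12.4 CPM against 14.6 to 14.96).

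SVX_VAS 2 was the high library for H2-K2 (0.951, 5.56 CPM against 2.10 to 2.27), H2-K1 (0.861, 428 CPM against 335 to 348) and H2-T23 (0.861, 95.9 CPM against 40.6 to 48.3). This library also held the most epithelial marker RNA of its group, 1690.3 CPM against 730.7 to 1105 CPM, and the part of this in the 3 genes was not tested. SVX_VAS 1 was high for H2-Q7 (0.858, 53.1 CPM against 42.9 to 44.3) and SVX_VAS 3 low for Nlrc5 (0.879, 85.2 CPM against 91.4 to 92.3).

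SVX 1 was high for H2-Q2 (0.917, 1.39 CPM against 0.641 to 0.703). In VAS, library 1 was high for H2-Q6 (0.839, 62.1 CPM against 56.2 to 57.2) and low for H2-Ob (0.852, 3.19 CPM against 5.05 to 5.37), and library 4 was high for H2-Eb1 (0.866, 77.4 CPM against 46.3 to 50.5).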

How the results depend on the processing

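The number of MHC genes called was 16 in INT, 16 in SVX, 15 in SVX_VAS and 18 in VAS, each against CONT. Leaving out 1 library at a time gave 15 to 17, 12 to 16, 10 to 15 and 15 to 21, and the other alternatives 16 to 17, 14 to 18, 12 to 17 and 14 to 18. The share of all genes called ran from 19.5% to 37.9% in INT, 25.3% to 47.4% in SVX, 22.9% to 43.4% in SVX_VAS and 25.3% to 50.8% in VAS over the same settings, lowest with no filter in each. Against INT the count was 0 in all 3 comparisons under every alternative run, except that without VAS replicate 1 VAS gave 2 class I genes lower (range 0 to 2), with 3.34% of all genes called. Leaving out VAS 2 and VAS 3 alone, and all alternatives for the partner lists, were chosen after seeing the data. Single genes kept direction in all 975 alternative values and lost their call in 94, 9 times each for H2-DMa in SVX and H2-K2 in VAS, and 8 times each for H2-DMa in SVX_VAS, H2-DMb2 in SVX, H2-K1 in VAS, and H2-T-ps in SVX_VAS and VAS. With the replicate block the 4 counts against CONT were 17, 14, 12 and 18, with 7 of 9 class II genes called in SVX and in SVX_VAS, where H2-DMa and H2-DMb2 were not called, and those against INT were 0, 0 and 0. Same-numbered libraries did not deviate together (median r 0.05 over 36 pairs, from -0.69 to 0.58), so the numbers are not read as pairs. DESeq2's size factors shifted the median of all genes by at most 0.02 (log2). In the shallowest library 3 counts correspond to 0.237 CPM, so genes near that level could not be told from absent.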
